A study of Homo sapiens with 18 samples.

Results

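The SR, hnRNP and RBM families of RNA-binding proteins were followed in MSTO-211H, an established line of human mesothelioma cells. They were taken as every probe set of the HGU133A array whose only gene symbol begins with SRSF, HNRNP or RBM, followed by a number for SRSF and RBM, or is TRA2A, TRA2B or PRP4K, leaving out chromosome Y. This gave 131 of 22283 probe sets, for 58 of the 11963 gene symbols on the array. They comprise 26 probe sets of 9 SRSF genes, 9 of TRA2A, TRA2B and PRP4K, 49 of 19 HNRNP symbols and 47 of 27 RBM symbols, among them the pseudogene HNRNPA3P1 and the antisense transcript RBM12B-AS1. RNA came from cells given piroxicam at 760 µM (P), cisplatin at 4.5 µg/mL (C), the combination of these (P/C) or neither (untreated), and collected at 24 h or 8 h. Piroxicam, an anti-inflammatory agent, blocks cyclooxygenases, and cisplatin crosslinks DNA through its platinum atom. The 18 arrays hold 3 P, 3 C, 2 P/C and 2 untreated samples at 24 h and 2 samples of each of these groups at 8 h. All groups are of 1 cell line, so nothing here extends beyond it.

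SR proteins carry RNA-recognition motifs and a domain rich in arginine and serine. They bind exonic enhancers, recruit the spliceosome and, in part, travel with the mRNA to the cytoplasm, while kinases that phosphorylate the arginine and serine repeats set their location and activity. The hnRNP proteins coat nascent transcripts, often repress exons that SR proteins favour, and take part in mRNA export, stability and translation. RBM is a naming series for proteins with an RNA-binding motif rather than a single family, and its members range from core spliceosome components to regulators of alternative splicing. Many transcripts of all 3 groups are themselves alternatively spliced in their own autoregulation, so different probe sets of a gene can report different transcripts.

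Values are log2 signals, as the authors' GCRMA summary gave them. A probe set was tested where its interquartile range over the arrays was at least 0.25 and its signal at least 100 on at least 25% of the arrays, which 62 of the 131 did, for 33 genes. Of the other 69, 62 were too dim and 7 were bright but too steady, and 34 of the 69 are RBM probe sets. Calls required both an adjusted p no higher than 0.05 and a log2 fold change of 1 or more in size, from limma fitted to all 3057 tested probe sets. Because the filter lets through a probe set that is bright in only a few groups, counts of tested members are not counts of all members.

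The share of probe sets at a signal of 100 or more ranged from 14.95% to 16.8% over the arrays. Precision is limited by how many arrays each group has. The keratins KRT8 and KRT18 and vimentin (VIM) were above 100 on all 18 arrays. The other 8 of the 11 mesothelial and epithelial markers measured, MSLN, CALB2, WT1 and the keratins KRT5, KRT7 and KRT19 among them, reached it on none. None of 7 leukocyte and erythroid and none of 8 stromal and endothelial markers measured did on any array. The arrays give the RNA of all cells together, so fewer cells in a state and less RNA per cell cannot be told apart. Arrays at 24 h did not all lie with their group. Over the tested probe sets, P/C replicate 1 differed by a mean of 0.26 (absolute log2 difference) from C replicate 3, and P/C replicate 3 by 0.28 from P replicate 1, while C replicate 1 was 0.30 from untreated replicate 1. Over 53 probe sets outside these families that piroxicam moved at 8 h, the mean signed change from the untreated mean at 24 h was 0.44 on P/C replicate 1 and 1.32 on P/C replicate 3, beside 1.49 to 1.54 on the P arrays and 0.29 to 0.36 on the C arrays. For the comparison of P/C with untreated cells at 24 h the count of calls, and each tested member whose call it changes, are given with and without replicate 1.

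**Figure D1:**
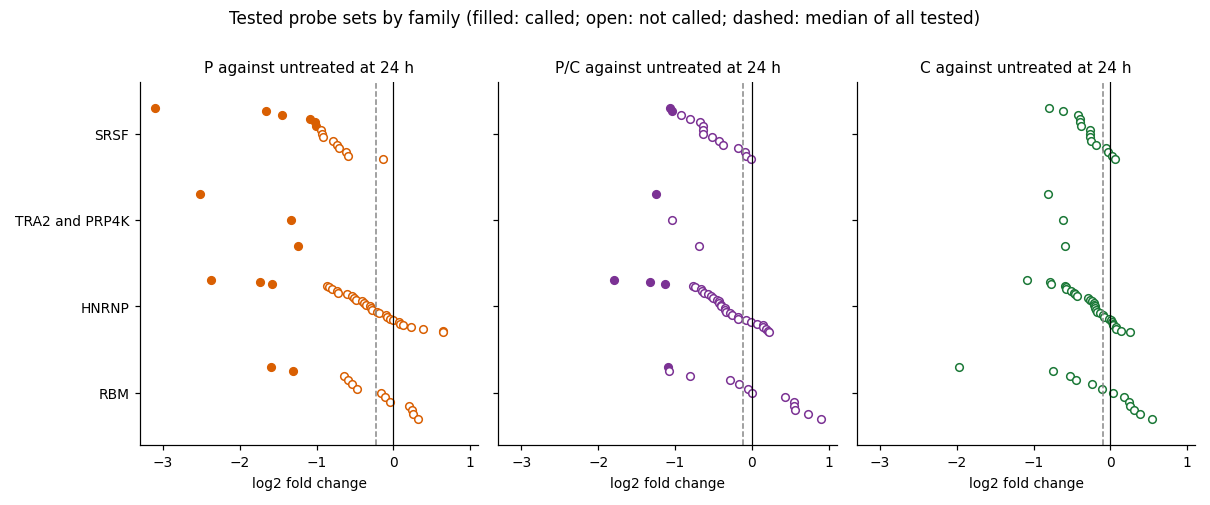
Log2 fold change at 24 h of the 62 tested probe sets, each a point, by family (TRA2B and PRP4K set together, though not a family), for P, P/C and C against untreated cells; filled points were called, the dashed line is the median of all 3057 tested probe sets. With P all 15 SRSF points and all 3 of TRA2B and PRP4K lie below 0, and no point is filled with C.

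Piroxicam alone for 24 h lowered 14 of the 62 tested probe sets and raised none, against 11.4% of all 3057 tested called lower and 3.14% called higher (22.6% and 0% of the members). Members were chosen with earlier results of these data known, TRA2B and PRP4K by name. The shares set side by side here and below are therefore no test of the members. The 14 probe sets belong to 11 genes. These are the SR proteins SRSF3, SRSF5, SRSF6, SRSF7 and SRSF10, the splicing activator TRA2B, the spliceosome kinase PRP4K, HNRNPA3, HNRNPD, RBM12 and RBM25. The median log2 fold change was -0.54 over the 62 members and -0.22 over all tested probe sets. In 38 of the 62 every P array lay below both untreated arrays, as it did for 42.8% of all tested. By symbol, 6 of 15 SRSF, 3 of 3 TRA2B and PRP4K, 3 of 31 HNRNP and 2 of 13 RBM probe sets were called lower, with medians of -0.93, -1.34, -0.30 and -0.16. TRA2B and PRP4K are the added genes set together here, and they are not a family. The fold changes ran from -3.10 to -0.14 in the SRSF probe sets and from -2.37 to 0.65 in the HNRNP probe sets.

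The strongest fall among them was that of SRSF6 (208804_s_at, chromosome 20), an SR protein of exonic enhancers. Its signal was 4.79, 4.77 and 4.48 on the P arrays, 7.69 and 6.02 on the P/C arrays, 7.95, 7.56 and 7.72 on the C arrays, and 7.45 and 8.11 on the untreated arrays at 24 h. The 3 P arrays lay below every other array of the series, and the 2 P/C arrays stood far apart from each other. With P the log2 fold change was -3.10 ± 0.48 (SE; adjusted p = 0.00065), a level 8.58-fold lower than in untreated cells. With P/C it was -0.93 ± 0.53 (adjusted p = 0.25) and was not called. Without P/C replicate 1 SRSF6 was called lower with P/C as well (-1.76, adjusted p = 0.047).

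SRSF3 (chromosome 6), the smallest SR protein and an adaptor for mRNA export, was measured by 3 tested probe sets. On 208673_s_at the P arrays had 6.70, 6.36 and 6.30, the P/C arrays 7.42 and 6.67, the C arrays 7.56, 7.34 and 7.05, and the untreated arrays 8.26 and 7.97. All 8 treated arrays lay below both untreated arrays. The fall was -1.66 ± 0.27 with P (adjusted p = 0.00079) and -1.07 ± 0.29 with P/C (adjusted p = 0.035). On 202899_s_at, which is bright, the fold changes were -0.94 with P (adjusted p = 0.0079, short of the fold limit) and -1.04 with P/C (adjusted p = 0.024, called), and on 208672_s_at the fold change with P was -0.92 (adjusted p = 0.0047).

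SRSF7 (214141_x_at, chromosome 2), like SRSF3 an export adaptor, had 8.97, 8.76 and 8.94 on the P arrays, 9.88 and 8.81 on the P/C arrays, 9.88, 9.64 and 9.86 on the C arrays, and 9.92 and 10.04 on the untreated arrays. The P arrays and P/C replicate 3 lay together, about 1 log2 unit below the rest. The fall with P was -1.09 ± 0.24 (adjusted p = 0.0047), and it was not called without untreated replicate 2 (-1.03, adjusted p = 0.056) or with quantile normalization (-0.97). With P/C the log2 fold change was -0.63 (adjusted p = 0.128), and without P/C replicate 1 SRSF7 was called (-1.17, adjusted p = 0.0040). SRSF5 (203380_x_at, chromosome 14) had 7.99, 7.72 and 7.72 on the P arrays against 8.74 and 8.89 on the untreated arrays. Its fold change of -1.01 ± 0.20 (adjusted p = 0.0021) was just past the fold limit, and it fell short with quantile normalization (-0.84), array weights (-0.98) or a replicate block (-0.94), and without untreated replicate 2 (-0.93), P replicate 2 or P replicate 3 (-0.96 in both).

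SRSF10 (chromosome 1), an SR protein that represses splicing when dephosphorylated, was called by both of its tested probe sets. On 213594_x_at the P arrays had 6.82, 6.69 and 5.83, the P/C arrays 8.50 and 6.92, the C arrays 7.63, 7.80 and 8.07, and the untreated arrays 7.86 and 7.93. The P arrays were the lowest, and P/C replicate 1 was higher than any other array at 24 h. The falls with P were -1.44 ± 0.38 (adjusted p = 0.011) there and -1.03 ± 0.22 (adjusted p = 0.0039) on 206095_s_at. Without P replicate 3 neither was called (-1.14, adjusted p = 0.051, and -0.90), nor was 213594_x_at without untreated replicate 2 (-1.41, adjusted p = 0.084) or 206095_s_at without untreated replicate 1 (just short of the fold limit) or with quantile normalization (-0.85). SRSF1 (chromosome 17), the founding member of the family, stayed within the fold limit on its 3 probe sets, with -0.93 (adjusted p = 0.0047) on the brightest, 211784_s_at. SRSF4 201696_at had -0.59 (adjusted p = 0.074) and SRSF8 214789_x_at -0.14 (adjusted p = 0.636).

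TRA2B (chromosome 3), a sequence-specific activator that binds purine-rich exonic enhancers, was lower on both tested probe sets with P. On 200892_s_at the P arrays had 7.68, 7.68 and 7.07, the P/C arrays 7.87 and 7.25, the C arrays 8.60, 8.18 and 7.81, and the untreated arrays 8.78 and 8.85. All treated arrays were below the untreated ones. The log2 fold change was -1.34 ± 0.26 with P (adjusted p = 0.0022), -1.25 ± 0.29 with P/C (adjusted p = 0.020) and -0.61 ± 0.26 with C (adjusted p = 0.319, not called). On 200893_at it was -1.24 ± 0.27 with P (adjusted p = 0.0039).

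PRP4K (202126_at, chromosome 6), a kinase that phosphorylates components of the tri-snRNP, had 5.11, 4.35 and 5.50 on the P arrays, 7.29 and 5.65 on the P/C arrays, 6.27, 6.82 and 6.99 on the C arrays, and 7.37 and 7.64 on the untreated arrays at 24 h. P/C replicate 3 lay near the P arrays and P/C replicate 1 near the untreated ones. The fall with P was -2.52 ± 0.43 (adjusted p = 0.0011), a 5.73-fold lower level. With P/C the fold change was -1.04 ± 0.47 (adjusted p = 0.158), and it was called only without P/C replicate 1 (adjusted p = 0.019).

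**Figure D2:**
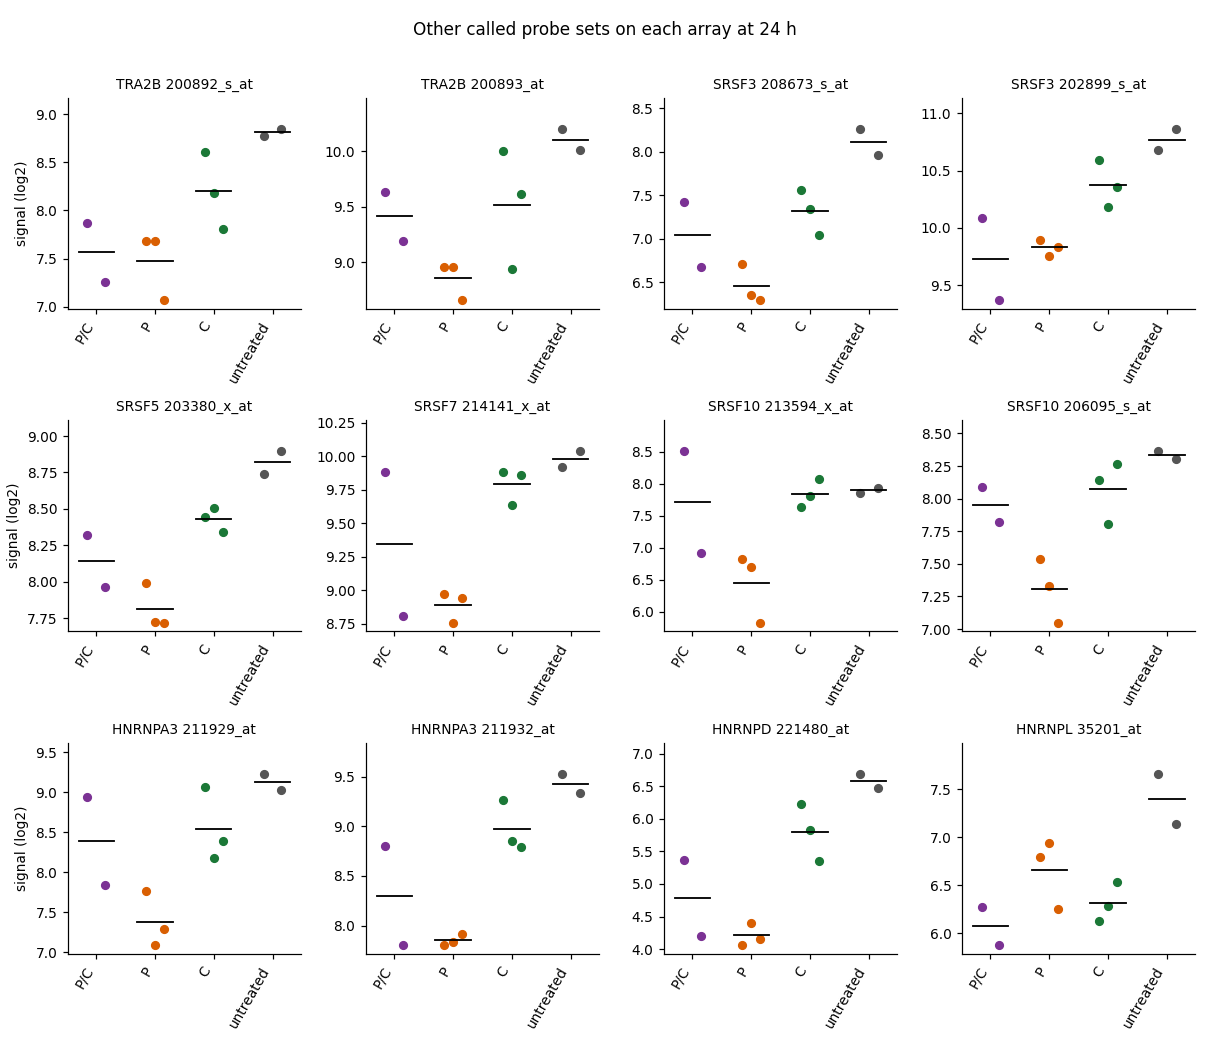
Log2 signal at 24 h of 12 probe sets called with P or P/C, other than those of PRP4K, SRSF6, RBM12 and RBM25; points are arrays and bars group means of P/C, P, C and untreated cells (2, 3, 3 and 2 arrays). On SRSF7 the P arrays have 8.76 to 8.97 and the untreated arrays 9.92 and 10.04, with the 2 P/C arrays at 9.88 and 8.81.

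Among the hnRNP probe sets, those called lower with P were 1 of HNRNPD and 2 of HNRNPA3. HNRNPD (chromosome 4), which binds AU-rich elements and promotes mRNA decay, had on 221480_at 4.06, 4.40 and 4.16 on the P arrays, 5.37 and 4.21 on the P/C arrays, 6.23, 5.83 and 5.36 on the C arrays, and 6.69 and 6.48 on the untreated arrays. The P arrays and P/C replicate 3 formed the low end. The log2 fold change was -2.37 ± 0.34 with P (adjusted p = 0.00050) and -1.80 ± 0.38 with P/C (adjusted p = 0.013). This probe set was dim. All its P, P/C and C signals at 24 h lay below 100 (6.64 in log2), and the untreated arrays lay on either side of that limit. The brightest tested probe set of HNRNPD, 200073_s_at, was called with neither. It had -0.36 with P (adjusted p = 0.214) and -0.53 with P/C (adjusted p = 0.140). The other 4 tested probe sets of HNRNPD were not called with P and ran from -0.54 to 0.64, the highest being 213359_at, on which the P arrays (7.85, 7.71 and 7.53) lay above the untreated arrays (7.31 and 6.80, adjusted p = 0.161).

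HNRNPA3 (chromosome 2), a paralogue of HNRNPA1 that shuttles between nucleus and cytoplasm, was lower with P on 2 of 3 tested probe sets. On 211932_at the P arrays had 7.81, 7.84 and 7.92, the P/C arrays 8.80 and 7.80, the C arrays 9.27, 8.85 and 8.79, and the untreated arrays 9.53 and 9.33. The 3 P arrays and P/C replicate 3 lay together, well below the rest. The fall was -1.58 ± 0.25 with P (adjusted p = 0.00065) and -1.13 ± 0.27 with P/C (adjusted p = 0.023). On 211929_at it was -1.74 ± 0.31 with P (adjusted p = 0.0013), while the fold change with P/C was -0.74 (adjusted p = 0.162), and -1.29 without P/C replicate 1 (adjusted p = 0.025, called). The third probe set, 211930_at, had -0.87 with P (adjusted p = 0.021) and -0.77 with P/C (adjusted p = 0.084), and it too was called with P/C only without replicate 1 (-1.05, adjusted p = 0.046).

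HNRNPL (35201_at, chromosome 19), a regulator that binds CA repeats, was called with P/C and not with P. The P/C arrays had 6.27 and 5.88, the P arrays 6.79, 6.94 and 6.25, the C arrays 6.13, 6.29 and 6.53, and the untreated arrays 7.66 and 7.14. All treated arrays lay below the untreated ones. The fold change was -1.33 ± 0.27 with P/C (adjusted p = 0.012), -0.74 ± 0.24 with P (adjusted p = 0.034) and -1.08 ± 0.24 with C (adjusted p = 0.187), and the P/C and P arrays did not differ past the threshold (-0.59, adjusted p = 0.191).

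Of the 62 members 11 had a fold change above 0 with P, and 1 of them had an adjusted p at or below 0.05. HNRNPA1 214280_x_at (chromosome 12), of a repressor of exon inclusion, had 10.03, 9.78 and 9.96 on the P arrays against 9.33 and 9.21 on the untreated arrays, a log2 fold change of 0.65 ± 0.22 (adjusted p = 0.037) that did not reach the fold limit. HNRNPA1 has many processed pseudogenes, so this probe set may share signal with near-identical copies. The other HNRNP probe sets with an adjusted p at or below 0.05 with P were below 0 and short of the fold limit, such as HNRNPU 200593_s_at (-0.84, adjusted p = 0.0083), HNRNPA2B1 205292_s_at (-0.81, adjusted p = 0.020) and HNRNPAB 201277_s_at (-0.72, adjusted p = 0.014). The 4 probe sets of HNRNPC, which binds uridine tracts, ranged from -0.30 to 0.38 and none was called.

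**Figure D3:**
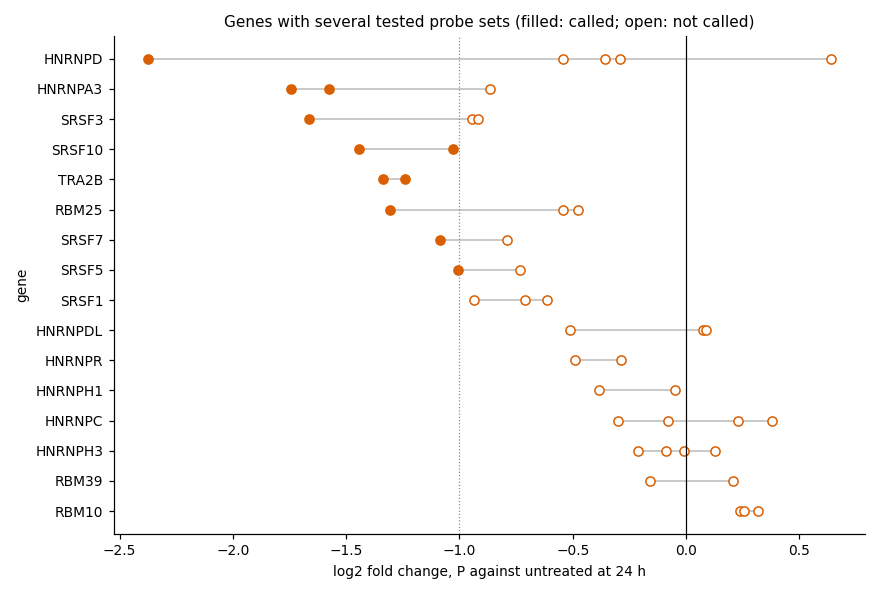
Log2 fold change with P against untreated cells at 24 h for the 16 genes with several tested probe sets, 1 point for each probe set and a line over their range; filled points were called and the dotted line marks a log2 fold change of -1. Both probe sets of TRA2B and both of SRSF10 were called, while those of HNRNPD spread from -2.37 to 0.64.

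Which probe set is read mattered for many of these genes. Of the 33 tested genes 16 had several tested probe sets. With P at 24 h 8 of the 16 had at least 1 called, 2 (TRA2B and SRSF10) had all called, and 5 (HNRNPD, HNRNPDL, HNRNPC, HNRNPH3 and RBM39) had fold changes of both signs. Read by the brightest probe set of each gene alone, 7 genes were called with P instead of 11. Whether the probe sets report different transcripts of these genes was not tested.

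Combined treatment for 24 h lowered 7 of the 62 probe sets and raised none, against 4.22% of all tested called lower and 2.65% called higher. They belong to 6 genes, HNRNPD, HNRNPL, TRA2B, HNRNPA3, RBM25 and SRSF3, and the median was -0.41 over the members and -0.12 over all tested. Of these genes 5 had several tested probe sets, and none of the 5 had all of them called. The brightest of TRA2B, 200893_at, had -0.69 with P/C (adjusted p = 0.133), and those of RBM25 ran from -1.09 to -0.05. In 36 of 62 both P/C arrays lay below both untreated arrays, as for 34% of all tested. The comparisons of P and of P/C with untreated cells share the untreated arrays, and 4 probe sets were called in both, which is 4 of the 14 with P and 4 of the 7 with P/C. The highest fold change with P/C was that of a probe set of RBM10, an RNA-binding protein that favours exon skipping. This probe set, 215089_s_at, had 8.46 and 7.93 on the P/C arrays against 7.28 and 7.31 on the untreated arrays. It was not called (0.90, adjusted p = 0.089).

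The count with P/C moved strongly with single arrays. Without P/C replicate 1, with the lone remaining array assumed to vary as the other groups do, 13 probe sets were called lower against 7.69% of all tested, 9 of them also called with P. Without P/C replicate 3 or without untreated replicate 2 none was called, and without untreated replicate 1 4 were. A fit of the P/C and untreated arrays at 24 h alone called none.

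Cisplatin alone for 24 h gave no called member, as for all tested probe sets (0%). At an unadjusted p under 0.05, 12 of 62 were lower and none higher, against 9.03% and 4.74% of all tested. The lowest adjusted p, 0.055, was that of RBM25 212027_at, with 4.80, 5.19 and 5.96 on the C arrays against 7.71 and 6.88 on the untreated arrays and a log2 fold change of -1.98 ± 0.35. The groups did not overlap, and this probe set was called with C in fits with a replicate block (-2.05, adjusted p = 0.029) or without C replicate 1 (-1.72, adjusted p = 0.0099). The probe sets of RBM25 disagreed with C. The brightest, 212033_at, had -0.75 (adjusted p = 0.259), and 212031_at had a mean of 7.28 with C and 7.25 in untreated cells. At 8 h cisplatin gave no called member (0% of all tested), no member at an unadjusted p under 0.05 against 1.14% of all tested, and a member median of 0.00.

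At 8 h the probe sets called were those of PRP4K, which was added by name, RBM25 and RBM12. With P/C 5 of the 62 probe sets were called lower and none higher, against 0.36% of all tested called lower and 0.262% called higher. With P 4 of 62 were called lower and none higher, against 0.294% and 0.196%. The 4 called with P are among the 5 called with P/C, and both comparisons share the untreated arrays. No member stayed called with P/C when its replicate 1 or either untreated array was left out, or with P when either P or either untreated array was, each of which leaves 1 array in a group. With P 1 member stayed called without either C array at 8 h. These members make up 5 of the 11 probe sets called lower with P/C at 8 h in all and 4 of the 9 with P. As the arrays with and without cisplatin differed little at this time, the 4 arrays with piroxicam were also set against the 4 arrays without it, a comparison chosen after the data were seen. There the same 5 probe sets were called lower and none higher, against 1.11% and 0.785% of all tested, and they stayed called in every alternative fit of this comparison that tested them. At a signal of at least 200 RBM25 212027_at and 212031_at were not tested.

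The sequences before the starts of these genes are shown because PRP4K, RBM25 and RBM12 were lower together at 8 h and SRSF6 fell most at 24 h. They are RefSeq sequences of GRCh38.p14, from 250 bases before to 50 bases after the gene's start, read in the direction of the gene, for PRP4K at chr6:4021050-4021349 (plus strand), RBM25 at chr14:73058284-73058583 (plus strand), RBM12 at chr20:35664851-35665150 (minus strand) and SRSF6 at chr20:43457646-43457945 (plus strand). Capitals mark matches on either strand to CCAAT (the NF-Y box), GCCAT (the YY1 core), CCGGAAG (an ETS core), CACGTG (an E-box) and GGGCGG (a GC box), and none of the marked matches overlap.
PRP4K: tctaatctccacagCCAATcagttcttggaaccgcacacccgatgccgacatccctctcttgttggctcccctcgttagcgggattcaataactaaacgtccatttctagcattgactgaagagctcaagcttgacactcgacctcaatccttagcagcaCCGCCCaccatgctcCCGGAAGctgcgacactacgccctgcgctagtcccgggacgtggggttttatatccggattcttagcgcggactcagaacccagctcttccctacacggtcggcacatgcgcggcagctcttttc
RBM25: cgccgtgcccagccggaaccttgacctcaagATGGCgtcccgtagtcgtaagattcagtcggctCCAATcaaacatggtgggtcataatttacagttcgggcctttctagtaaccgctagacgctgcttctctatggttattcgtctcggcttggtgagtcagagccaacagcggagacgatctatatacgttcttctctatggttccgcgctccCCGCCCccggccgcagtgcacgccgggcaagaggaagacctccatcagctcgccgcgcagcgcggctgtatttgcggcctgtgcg
RBM12: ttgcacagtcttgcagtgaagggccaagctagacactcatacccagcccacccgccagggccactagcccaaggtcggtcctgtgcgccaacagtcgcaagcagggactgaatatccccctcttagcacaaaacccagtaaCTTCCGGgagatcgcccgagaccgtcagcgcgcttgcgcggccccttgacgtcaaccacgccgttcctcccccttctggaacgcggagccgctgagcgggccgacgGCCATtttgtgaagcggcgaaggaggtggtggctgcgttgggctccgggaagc
SRSF6: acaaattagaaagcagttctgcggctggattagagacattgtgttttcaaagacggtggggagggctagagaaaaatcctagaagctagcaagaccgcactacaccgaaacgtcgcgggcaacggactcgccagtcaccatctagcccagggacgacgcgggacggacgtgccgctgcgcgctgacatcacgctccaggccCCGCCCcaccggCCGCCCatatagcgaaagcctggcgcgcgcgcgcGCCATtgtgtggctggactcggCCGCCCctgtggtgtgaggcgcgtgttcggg

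The PRP4K window holds 1 match each of the NF-Y box, the ETS core and the GC box, and that of RBM25 1 each of the NF-Y box, the YY1 core and the GC box. The RBM12 window holds 1 each of the YY1 core and the ETS core, and that of SRSF6 1 of the YY1 core and 3 of the GC box. None of the 5 motifs is in all 4 windows. In RBM12 and in SRSF6 the match of the YY1 core begins 3 bases before the start. Over all 35116 such windows of the RefSeq table, 34.6% hold the NF-Y box, 37.8% the YY1 core, 10.3% the ETS core, 7.26% the E-box and 44.95% the GC box. Of the 58 member symbols 51 have a window in the table, of which 29 hold the NF-Y box, 25 the YY1 core, 12 the ETS core, 9 the E-box and 33 the GC box. All windows were counted without selection by kind of gene or by expression, so these counts are no test of a difference. A match is a description of the letters only.

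PRP4K 202126_at showed the largest of these falls. At 8 h its signal was 4.46 and 5.59 on the P/C arrays, 5.32 and 5.56 on the P arrays, 8.04 and 8.20 on the C arrays, and 7.88 and 8.17 on the untreated arrays. The 4 arrays with piroxicam lay more than 2 log2 units below the 4 without. The log2 fold change was -3.00 ± 0.47 with P/C (adjusted p = 0.0072), -2.59 ± 0.47 with P (adjusted p = 0.024) and -2.84 ± 0.34 over all 8 arrays (adjusted p = 0.00028).

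RBM25 (chromosome 14), a splicing regulator that influences the choice of splice sites in apoptosis genes such as BCL2L1, fell on all 3 tested probe sets. On 212027_at the P/C arrays had 4.86 and 5.81, the P arrays 5.51 and 5.61, the C arrays 6.68 and 6.82, and the untreated arrays 7.27 and 7.61. On 212031_at they had 5.62 and 6.44 with P/C, 6.03 and 6.45 with P, 8.10 and 8.36 with C, and 7.52 and 7.89 in untreated cells. On each of the 3 probe sets all 4 arrays with piroxicam lay below the 4 without. With P/C the log2 fold changes were -2.11 on 212027_at, -1.68 on 212031_at and -1.42 on 212033_at (adjusted p = 0.017, 0.018 and 0.017). With P they were -1.88, -1.46 and -1.24 in the same order (adjusted p = 0.044, 0.049 and 0.049). Each of these 3 calls with P was lost in several alternative fits. Some of those fits left out an array that was neither P nor untreated at 8 h.

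RBM12 (212168_at, chromosome 20), a protein with several RNA-recognition motifs, had 6.97 and 7.42 on the P/C arrays, 7.69 and 7.73 on the P arrays, 8.69 and 8.44 on the C arrays, and 8.74 and 8.75 on the untreated arrays at 8 h. All 4 arrays with piroxicam lay below the others. The fold change was -1.55 ± 0.27 with P/C (adjusted p = 0.016), -1.04 ± 0.27 with P (adjusted p = 0.135, not called) and -1.21 ± 0.19 over all 8 arrays (adjusted p = 0.0026). SRSF6 had 8.23 and 6.67 on the P/C arrays, 7.66 and 6.65 on the P arrays, 9.14 and 8.36 on the C arrays, and 8.21 and 8.77 on the untreated arrays at 8 h, and was not called (-1.32 over all 8 arrays, adjusted p = 0.053). On it the arrays with and without piroxicam overlapped.

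**Figure D4:**
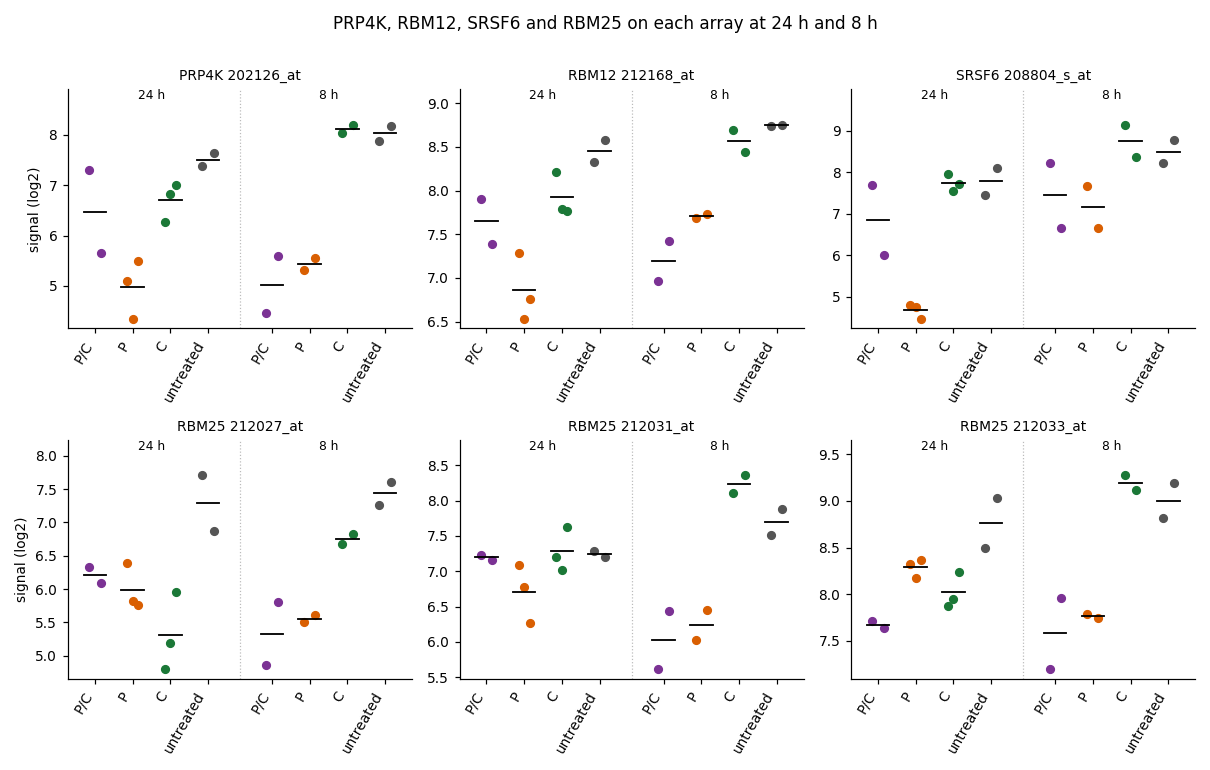
Log2 signal of PRP4K, RBM12, SRSF6 and the 3 tested probe sets of RBM25 on each array at 24 h (left of the dotted line) and 8 h (right), for P/C, P, C and untreated cells; points are arrays and bars group means. At 8 h the 4 arrays with piroxicam lie below the 4 without on every panel but that of SRSF6.

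At 24 h RBM12 212168_at had 7.28, 6.54 and 6.76 on the P arrays and 7.91 and 7.39 on the P/C arrays against 8.32 and 8.57 on the untreated arrays, and was called with P (-1.59 ± 0.25, adjusted p = 0.00065) and not with P/C (-0.80, adjusted p = 0.068), except without P/C replicate 1 (-1.06, adjusted p = 0.042). RBM25 212027_at had 6.40, 5.82 and 5.76 on the P arrays and was called (-1.30 ± 0.35, adjusted p = 0.012), but without untreated replicate 1 it was not (-0.89, adjusted p = 0.146). RBM25 212031_at, with 7.08, 6.77 and 6.26 on the P arrays against 7.29 and 7.21 on the untreated arrays, was not called (-0.54, adjusted p = 0.163), and 212033_at was called with P/C (-1.09 ± 0.26, adjusted p = 0.023) and not with P (-0.48, adjusted p = 0.145).

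The change of each effect between the times, 24 h minus 8 h, was tested itself and gave no called member, with P (0.196% of all tested called) or with P/C (0.0654%). With P at an unadjusted p under 0.05 the effect was lower at 24 h than at 8 h in 9 of 62 members and higher in 3, against 11.1% and 1.6% of all tested. With P/C it was lower in 4 and higher in 4, against 5.66% and 4.91%, and the higher ones include PRP4K 202126_at (1.96 ± 0.67, adjusted p = 0.378) and RBM25 212031_at (1.63 ± 0.44, adjusted p = 0.276). With P the lowest adjusted p was 0.111, for HNRNPA3 211932_at, whose effect of P was lower by -1.60 ± 0.37 at 24 h than at 8 h, and HNRNPD 221480_at had the largest difference with P (-1.86 ± 0.51, adjusted p = 0.187). Both were called in a fit with array weights and in one of the arrays of this comparison alone. In untreated cells no member was called at 24 h against 8 h (0.0981% of all tested called) and none had an unadjusted p under 0.05 (5.56% of all tested).

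No member was called in P/C against P at 24 h (0.164% of all tested called), in P/C against C (0.0981%) or in the difference of the P/C effect from the P and C effects added together (0%). At an unadjusted p under 0.05, 14 members were higher and 5 lower in P/C than in P (15.4% and 4.48% of all tested), 1 was higher and 5 lower in P/C than in C (6.41% and 8.41%), and 17 were above and none below the sum (12.1% and 1.86%). In P/C against P the largest difference was that of SRSF6, 2.17 ± 0.48 higher in P/C than in P (adjusted p = 0.054). It was called in the fits with a replicate block (2.24, adjusted p = 0.040, with all arrays, and 2.17, adjusted p = 0.040, with the 8 h arrays alone). These counts rested on the P/C arrays. Without P/C replicate 3, 5 members were called higher in P/C than in P and 10 above the sum, and without P/C replicate 1, 3 were called lower in P/C than in C.

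Outside the filter, members were read from a fit of all 22215 probe sets without the Affymetrix controls. With P at 24 h it called 21 members lower and none higher, against 2.67% of all probe sets lower, and 7 of the 21 were outside the filter. One was SRSF11 200685_at (chromosome 1), of an SR-related protein, with 2.70, 3.01 and 2.33 on the P arrays and 3.32 and 2.51 on the P/C arrays against 5.43 and 5.39 on the untreated arrays (adjusted p = 0.0033 with P and 0.030 with P/C). All of these signals lie below 100, and those with P are near the median of all probe sets on the P arrays (2.74 to 2.83), so no fold is given. The bright probe set of the same gene, 200686_s_at, had 9.67, 9.36 and 9.75 on the P arrays against 9.61 and 9.69 on the untreated arrays (-0.06, adjusted p = 0.940).

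RBM12 had a second probe set outside the filter, 212170_at, on which the P arrays had 3.91, 3.72 and 4.08 and the P/C arrays 4.32 and 3.30 against 5.99 and 5.97 on the untreated arrays, and it too was called with P (-2.07, adjusted p = 0.0054) and with P/C (-2.17, adjusted p = 0.030). All of these RBM12 signals lie below 100. HNRNPDL 209068_at, of a paralogue of HNRNPD, was called with P (-1.31, adjusted p = 0.0031) and with P/C (-1.07, adjusted p = 0.032), although none of the 3 tested probe sets of that gene was. It was dim as well, with 4.94 and 5.43 on the untreated arrays, below a signal of 100. Of the arrays with and without piroxicam at 8 h this fit called 12 members lower, against 0.437% of all probe sets, and 7 of the 12 lay outside the filter, among them RBM25 212030_at (-1.85, adjusted p = 0.00088) and PRP4K 211090_s_at (-1.52, adjusted p = 0.029). On PRP4K 211090_s_at every array at 8 h lay below a signal of 100. At 24 h its mean was 4.89 with P/C against 4.45 in untreated cells, and it was not called. No member outside the filter was called with C at either time.

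Other genes of the splicing machinery were counted from lists of their complexes, to be read against the 11.4% of all tested called lower with P at 24 h and the 3.14% called higher. With P at 24 h, 1 of 13 tested probe sets of snRNP proteins was called lower, that of SNRPA1, a protein of the U2 snRNP (-1.02, adjusted p = 0.0083), and 1 higher, that of SNRPA of the U1 snRNP (1.01, adjusted p = 0.038). Of 15 probe sets of U2 snRNP and splice acceptor factors 2 were called lower, the helicase DDX46 (-1.92, adjusted p = 0.00065) and SF3A3 (-1.41, adjusted p = 0.0052), and none higher. None of 8 probe sets of tri-snRNP and Prp19 complex proteins, of 3 of SR protein kinases or of 1 of exon junction and decay factors was called. Of 29 probe sets of other splicing regulators 1 was lower, SYNCRIP (-2.07, adjusted p = 0.0022), and 1 higher, the cold-inducible CIRBP (1.23, adjusted p = 0.043). Medians over the lists were -0.59 for snRNP proteins, -0.49 for U2 snRNP factors, -0.41 for tri-snRNP and Prp19 proteins, -0.41 for other regulators, -0.33 for SR-related proteins and 0.21 for SR protein kinases, beside -0.22 over all tested, and the exon junction probe set had -0.43. PNN, an SR-related protein of nuclear speckles, was the only one of 16 SR-related probe sets called with P (-1.17, adjusted p = 0.0021), and it was also called with P/C at 24 h (-1.20, adjusted p = 0.013) and at 8 h (-1.19, adjusted p = 0.038).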

How the data were processed

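RNA of MSTO-211H cells was hybridised to 18 HGU133A arrays. The authors dropped arrays whose raw intensities were outlying, and deposited log2 signals from GCRMA, which corrects background and normalizes between arrays, so a change shared by all transcripts would not be seen. Its version was not given in the sources used here. Groups, times and replicate numbers come from the labels, and the paper calls the replicates biological. Members and lists were chosen with earlier results of these data known. Gene symbols are those of GEO's platform annotation, and 0 symbols changed when updated through Entrez IDs. Left out were 18 probe sets with several symbols, such as those of SRSF2 and SRSF9. After the filter of the paper's methods and removal of 68 control probe sets, a model in limma 3.58.1 (R 4.3.3) was fitted to 3057 probe sets, with 1 mean for each of the 8 groups, with 10 residual and 5.76 prior degrees of freedom. P values were two-sided and adjusted by Benjamini-Hochberg within each of 12 comparisons and 1 added after the data were seen. The filter kept fewer probe sets here than the paper's methods state, and the cause was not tested. Values per array are given, in the text or the figures, for the probe sets called against untreated cells. Members in the study's table of changed genes were also picked out. So were the 2 highest and 2 lowest of each family with P or P/C at 24 h. Of those not called, only some have their values per array given. Members outside the filter, and the others named, were chosen after their values were seen. Arrays with the same number deviated together at 8 h, with correlations of 0.20 to 0.66 over 6 pairs of groups. Each is 1 value, as both arrays of a group mirror each other. At 24 h the correlations ran from -0.22 to 0.39, a range that overlaps that at 8 h. The labels give numbers only, so whether these pair the arrays at either time is not known. The main fit has no term for such pairs, so its p values take no account of any pairing. A replicate block was used only as an alternative. The fit was tested on simulated data. Alternatives were no filter or a signal of at least 200, quantile normalization, median centring, array weights, the arrays of a comparison alone, a replicate block, and leaving out each array.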

Additional observations from a re-analysis of the deposited data

Results flagged for a closer look

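RBM5 201394_s_at, of a splicing regulator of apoptosis genes, was the only member outside the filter called higher in the fit of all probe sets. Its signal was 5.73 and 5.28 on the P/C arrays against 3.97 and 3.48 on the untreated arrays at 24 h, a log2 fold change of 1.78 ± 0.34 (adjusted p = 0.030). The P/C arrays were the highest of the 18, and all of its signals lie below 100. The P arrays had 4.51, 3.83 and 3.83 and the C arrays 4.09, 4.66 and 4.92. Another probe set of RBM5, 201395_at, had a fold change of 1.04 with P/C (adjusted p = 0.094) and 209936_at one of -0.01 (adjusted p = 0.994).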

How the results depend on the processing

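With P at 24 h the count of called members stayed within 1.5 times of 14 under every alternative fit, and ran from 12 to 14 with each array left out in turn (without replicate block 14, with it 13). With C at 24 h it was 0, and 1 with quantile normalization, median centring, array weights, either replicate block or both replicate 1 arrays of P/C and C left out, and from 0 to 1 with single arrays left out. With P/C at 24 h it was 7, with 11 without a filter, 2 with array weights, 0 with the arrays of the comparison alone, 13 without both replicate 1 arrays, and 0 to 13 with single arrays left out. With P at 8 h it was 4, with 1 after median centring, 0 without a filter, 2 at a signal of at least 200, 2 with the arrays of the comparison alone and 0 to 4 with single arrays left out. With P/C at 8 h it was 5, with 3 at a signal of at least 200, 3 with array weights, 2 with its arrays alone and 0 to 5 with single arrays left out. Leaving out either untreated array at 8 h gave 0 in both. For the 8 h arrays with against without piroxicam it was 5, with 12 without a filter, 4 at a signal of at least 200 and 5 to 6 with single arrays left out. P/C against P had 1 at a signal of at least 200 and with either replicate block, and 0 to 5 with single arrays left out. P/C against C had 2 without both replicate 1 arrays and 0 to 3 with single arrays left out, and the departure from the sum 0 to 10. The difference between times had 2 with P under array weights, with its arrays alone or without both replicate 1 arrays, and 0 to 2 with single arrays left out. With P/C it had 1 without both replicate 1 arrays and 0 to 1 with single arrays left out. The causes were not tested. With the replicate block for all arrays P/C at 24 h had 5, and no fold change called against untreated cells or in the 8 h arrays with against without piroxicam changed sign in any alternative.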
